A study of Mus musculus with 55 samples.

Results

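The glutamate receptor subunits described here are 9 genes chosen by symbol, Grin1, Grin2a, Grin2b, Grin2c, Gria1, Gria2, Gria3, Gria4 and Grm4, among 19938 genes with a probe set of 1 symbol in an array study of the mouse cerebellum. Of the 9 genes, 8 had 1 probe set each, and these 8 passed the filter on low levels and were among the 14949 genes tested. No probe set carried Grin1 in the probe annotation used here, so that subunit was not analysed here. Values are log2 expression levels, on which a difference of 1 is a doubling. One probe set's level cannot be set against another's, so each gene is compared only with itself across arrays.

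RNA came from the cerebellum of C57Bl/6 mouse pups of postnatal day 22 that had been injected under the skin each day from day 4 to day 21. The agent, CPO, is chlorpyrifos oxon, which the body makes from the insecticide chlorpyrifos and which inhibits acetylcholinesterase, and it was given at 0.35 or 0.5 mg/kg/day. Controls received the vehicle, dimethyl sulfoxide (DMSO). The genotypes were Pon1-/- (KO), tgHuPON1Q192 (Q192), tgHuPON1R192 (R192) and Pon1+/+ (WT). PON1 is paraoxonase 1, an esterase that hydrolyses CPO, and the transgenes are forms of human PON1 that differ at the numbered residue. In the order vehicle, 0.35 and 0.5 there were 4, 5 and 3 arrays labelled KO, 4, 5 and 5 of Q192, 4, 5 and 5 of R192, and 6, 6 and 3 of WT. Each array description holds a number of unstated meaning, and 36 of the 55 arrays share theirs with another array. In the same order, arrays labelled KO carried 3, 4 and 2 numbers and those of Q192 3, 3 and 3. Arrays of R192 carried 3, 4 and 3, and those of WT 4, 3 and 2. The labels used here name neither the promoter of the transgenes, the state of mouse Pon1 in transgenic mice, the number of founder lines nor the sex of the pups. The comparisons ask whether CPO altered the expression of these subunits, whether genotype did, and whether genotype altered the response to CPO.

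Several arrays or labels stood apart. Pon1 averaged 10.08 ± 0.19 (SD, n = 12) in arrays with the knockout label, against 5.19 ± 0.24 (n = 15) in WT, which goes against that label, and means of both transgenic genotypes were 10.10 and 10.13. Whether the probes cover the deleted sequence is unknown here, so the group is called arrays labelled KO. Xist, a transcript of female cells, was between 11.06 and 11.33 in KO vehicle replicate 4 and in WT 0.35 replicates 1 and 2, and at most 5.99 in the other arrays. The mean of 16 granule neuron markers was 9.32 in WT vehicle replicate 4 and 9.86 in WT 0.5 replicate 2, against a median of 10.79 over 55 arrays. WT 0.35 replicates 1 and 2 had the lowest means of 21 brainstem and midbrain neuron markers, 6.93 and 6.84, against a median of 7.71. The descriptions of these 2 arrays give the same number. The array labelled KO 0.35 replicate 5 carries in its description the number of R192 0.35 arrays.

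Glutamate carries most fast excitation in the cerebellum, from mossy fibres to granule cells and from the parallel fibres of granule cells to Purkinje cells. NMDA receptors are calcium-permeable channels that need the obligatory subunit GluN1, encoded by Grin1, together with GluN2 subunits encoded by Grin2a, Grin2b and Grin2c. Maturing granule cells replace GluN2B with GluN2A and GluN2C, a switch that takes place in the first postnatal weeks. AMPA receptors are the fast channels and assemble from GluA1 to GluA4, encoded by Gria1 to Gria4, of which edited GluA2 keeps calcium out. Grm4 encodes mGlu4, a receptor coupled to inhibitory G proteins that sits on parallel fibre terminals and lowers glutamate release. In whole tissue, fewer cells of a type and less RNA per cell cannot be told apart.

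The genes lie on chromosomes 16 (Grin2a), 6 (Grin2b), 11 (Grin2c and Gria1), 3 (Gria2), X (Gria3), 9 (Gria4) and 17 (Grm4). RefSeq's GRCm38.p6 table held a stretch upstream of the outermost annotated start for Gria4 and Grin2c. These 120 bases are shown as the regions that border the start of an AMPA and an NMDA subunit gene that had such a window. Capitals mark CpG pairs, and both genes are on the minus strand, at chr9:4796235-4796354 and chr11:115267298-115267417.
Gria4: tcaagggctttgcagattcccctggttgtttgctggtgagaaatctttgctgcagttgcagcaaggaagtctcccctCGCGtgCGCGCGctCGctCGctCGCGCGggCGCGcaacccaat
Grin2c: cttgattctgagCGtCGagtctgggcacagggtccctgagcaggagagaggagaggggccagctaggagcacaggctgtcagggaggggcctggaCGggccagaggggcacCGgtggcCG
The Gria4 stretch had 12 CpG pairs and the Grin2c stretch 5, against a median of 3 over 32851 promoter windows of that length. Their GC contents were 60.8% and 68.3%, against a median of 54.2%. The windows lie before the start of each promoter entry and both stretches before the outermost annotated start, so their placement can differ. On either strand, neither stretch held the GC box GGGCGG, found in 26.5% of those windows, or the E-box CACGTG, found in 3.66%. Neither held the TATA box letters TATAAA, found in 6.34%, or the cAMP response element TGACGTCA, found in 1.24%.

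No subunit gene passed in any comparison. With limma, 0 of the 8 genes passed at an adjusted p under 0.05 in each of 20 comparisons. Of all genes tested, 0% to 9.2% passed in those comparisons. That share was 0% for both doses in arrays labelled KO, Q192 and R192, 0.00669% in WT at 0.35 and 1.04% in WT at 0.5. Of the differences of the 8 genes, 13 had an unadjusted p under 0.05. For CPO against vehicle, those were 4 of 8 genes in WT at 0.35 (20.3% of all genes tested), 1 in Q192 at 0.5 (13.2%) and 1 in R192 at 0.35 (3.58%). There were 0 in arrays labelled KO at 0.35 (6.44%) and 0.5 (12.8%), in Q192 at 0.35 (2.05%), in R192 at 0.5 (1.02%) and in WT at 0.5 (21.9%). Between genotypes there was 1 in arrays labelled KO against WT (4.88%) and 1 in R192 against arrays labelled KO (22.4%). There were 0 in Q192 against WT (4.7%), R192 against WT (12.9%), Q192 against arrays labelled KO (9.53%) and R192 against Q192 (9.97%). For differences of effect between arrays labelled KO and WT there were 4 at 0.35 (25%) and 0 at 0.5 (31.7%), and between R192 and Q192 there were 0 at 0.35 (5.56%) and 1 at 0.5 (6.93%). These comparisons share arrays with each other. A test of any difference among the 12 groups (limma's moderated F test) also called 0 of 8, against 4.2% of all genes tested, and 2 of 8 at an unadjusted p under 0.05. Those 2 genes were Grin2a (adjusted p = 0.129) and Grin2c (adjusted p = 0.2). The other 6 had adjusted p-values by that limma test between 0.429 for Grm4 and 0.805 for Gria3.

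**Figure D1:**
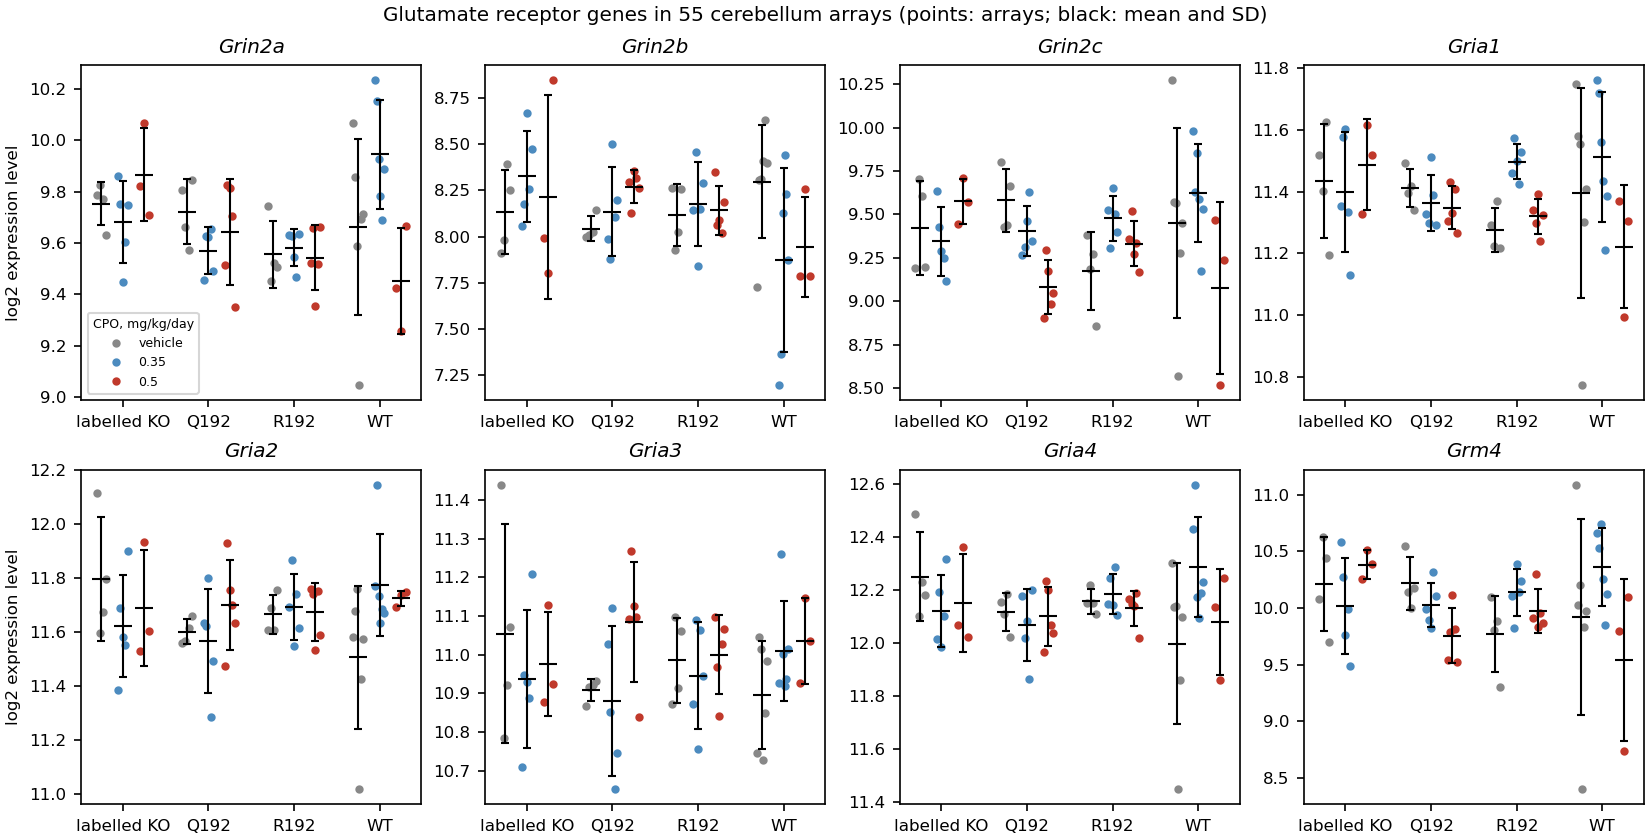
Log2 expression levels of the 8 subunit genes in 55 arrays, with genotypes along the horizontal axis, vehicle, 0.35 and 0.5 mg/kg/day CPO as grey, blue and red points, and the mean and SD of each group in black. The groups overlap for most genes, and single WT arrays lie far from the rest, such as the vehicle array at 8.40 for Grm4.

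The genes differed in how much they varied between arrays of 1 group. Grm4 had a within-group SD of 0.412, at the 99.5th percentile of all genes tested. Grin2b (0.277) and Grin2c (0.265) were at the 96.5th and 95.7th percentiles. Grin2a, Gria1, Gria2, Gria3 and Gria4 had within-group SDs between 0.154 for Gria3 and 0.177 for Grin2a, between the 69.5th and 81st percentiles. The widest spread lay in WT, where Grm4 ran from 8.40 to 11.09 with a median of 10.09 over 15 arrays.

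Grin2a encodes GluN2A, a GluN2 subunit of mature NMDA receptors. In WT, its levels at 0.35 had a lowest, median and highest array of 9.69, 9.91 and 10.23, against 9.05, 9.70 and 10.07 in WT vehicle. The ranges overlapped, and the highest arrays at 0.35 were replicates 1 and 2, at 10.23 and 10.15. The log2 difference was 0.27 (SE 0.11, limma adjusted p = 0.153), and 0.00669% of all genes passed in that comparison. At 0.5, the WT arrays had 9.43, 9.26 and 9.67, a difference from vehicle of -0.20 (SE 0.13, limma adjusted p = 0.365), and 1.04% of all genes passed. In the other genotypes, the differences of Grin2a ran from -0.14 for Q192 at 0.35 to 0.09 for arrays labelled KO at 0.5.

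Grin2a also had the smallest adjusted p of any subunit gene in a genotype comparison. It averaged 9.56 ± 0.10 (SD, n = 14) in R192, against 9.75 ± 0.15 (n = 12) in arrays labelled KO. The R192 arrays lay between 9.35 and 9.74, and the arrays labelled KO between 9.45 and 10.07, so the ranges overlapped. The log2 difference on the mean of 3 treatments was -0.20 (SE 0.07, 95% interval -0.34 to -0.06, limma adjusted p = 0.0794), in a comparison where 5.61% of all genes passed. With the mean of granule neuron markers as a covariate it was -0.10 (limma adjusted p = 0.267). Against WT, the R192 difference was -0.14 (SE 0.07, limma adjusted p = 0.392), with 0.87% of all genes passing.

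Grin2b encodes GluN2B, the GluN2 subunit of immature granule cells. Its WT levels at 0.35 were 7.20, 8.001 and 8.44 as lowest, median and highest array, against 7.73, 8.36 and 8.63 in WT vehicle. Replicates 1 and 2 at 0.35 were at 7.20 and 7.36, the other 4 arrays lay between 7.87 and 8.44, and the vehicle array at 7.73 was the lowest of its group by a wide gap. The log2 difference was -0.41 (SE 0.16, 95% interval -0.73 to -0.09, limma adjusted p = 0.146). When the 3 arrays with much Xist were left out, of which 2 are these replicates, it was -0.12 (SE 0.15, limma adjusted p = 0.921). The WT arrays at 0.5 had 7.79, 8.26 and 7.79, a difference from vehicle of -0.37 (SE 0.19, limma adjusted p = 0.246).

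Grin2b in arrays labelled KO lay between 7.91 and 8.40 in vehicle, between 8.05 and 8.67 at 0.35 and between 7.80 and 8.85 at 0.5, and the 3 ranges overlapped. The differences from vehicle were 0.205 (SE 0.18) at 0.35 and 0.13 (SE 0.205) at 0.5, and 0% of all genes passed in both comparisons with limma. Over all treatments, Grin2b averaged 8.24 ± 0.32 (SD, n = 12) in arrays labelled KO, against 8.06 ± 0.42 (n = 15) in WT. Its log2 difference was 0.22 (SE 0.11, 95% interval 0.0015 to 0.44, limma adjusted p = 0.999), where 0.375% of all genes passed. In Q192 and R192, the 4 dose differences of Grin2b ran from 0.03 to 0.24, with 0% of all genes passing in each.

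Grin2c encodes GluN2C, the subunit that mature granule cells add. In Q192 at 0.5, the 5 arrays had 8.91, 9.30, 9.18, 8.99 and 9.05, against 9.80, 9.43, 9.44 and 9.66 in the 4 arrays of Q192 vehicle. Each array at 0.5 lay under each vehicle array, and how many of all genes tested were apart in this way was not computed. The log2 difference was -0.52 (SE 0.18, 95% interval -0.88 to -0.16, limma adjusted p = 0.332). In that comparison, 0% of all genes passed after adjustment and 13.2% had an unadjusted p under 0.05. The mean of granule neuron markers was 10.58 ± 0.20 (SD, n = 5) in Q192 at 0.5 and 10.92 ± 0.14 (n = 4) in Q192 vehicle. With that mean as a covariate, the Grin2c difference was -0.24 (SE 0.09, limma adjusted p = 0.554).

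The other genotypes gave other values for Grin2c at 0.5. Its difference from vehicle was 0.14 (SE 0.20) in arrays labelled KO, 0.14 (SE 0.18) in R192 and -0.37 (SE 0.19, limma adjusted p = 0.247) in WT. The WT arrays at 0.5 had 9.47, 8.52 and 9.24, and the array at 8.52 is the one with few granule neuron markers. The effect of 0.5 in R192 minus that in Q192 was 0.655 (SE 0.25, 95% interval 0.15 to 1.16, limma adjusted p = 0.672), where 0% of all genes passed and 6.93% had an unadjusted p under 0.05. At 0.35, the differences of Grin2c ran from -0.16 in Q192 to 0.33 in R192.

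Gria1 encodes GluA1, which in the cerebellum is known from Bergmann glia. In R192 at 0.35, its 5 arrays had 11.46, 11.57, 11.50, 11.43 and 11.53, against 11.29, 11.22, 11.37 and 11.22 in R192 vehicle. The groups did not overlap, and how many of all genes tested were apart there was not computed. The log2 difference of Gria1 was 0.24 (SE 0.115, 95% interval 0.01 to 0.475, limma adjusted p = 0.921). In that comparison 0% of all genes passed and 3.58% had an unadjusted p under 0.05. At 0.5, the R192 arrays lay between 11.24 and 11.39, a difference from vehicle of 0.04 (SE 0.12). In the other genotypes, dose differences of Gria1 ran from -0.18 for WT at 0.5 to 0.09 for WT at 0.35.

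Gria2 encodes GluA2 and Gria4 encodes GluA4, an AMPA subunit of granule cells and Bergmann glia. In WT, Gria2 at 0.35 had a lowest, median and highest array of 11.63, 11.71 and 12.15, against 11.02, 11.58 and 11.76 in WT vehicle. The difference was 0.25 (SE 0.105, limma adjusted p = 0.171), and it rested in part on the vehicle array at 11.02, the one with few granule neuron markers, without which it was 0.17. Gria4 in WT at 0.35 had 12.10, 12.21 and 12.60, against 11.45, 12.12 and 12.30 in WT vehicle. Its difference was 0.27 (SE 0.09, 95% interval 0.08 to 0.46, limma adjusted p = 0.13), and 0.18 without that vehicle array. Without WT vehicle replicate 1 instead, it was 0.33 (SE 0.10, limma adjusted p = 0.042), in a fit where 5.66% of all genes passed. Without WT 0.35 replicate 4, it was 0.31 (SE 0.10, limma adjusted p = 0.0366), where 8.88% of all genes passed. For both genes, the highest array at 0.35 was replicate 2, an array with much Xist.

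The array descriptions give 2 file dates, and the WT differences at 0.35 were computed within each, without a test of the difference between the dates. Among arrays of the second date, Gria2 was higher at 0.35 by 0.51 (SE 0.15, limma adjusted p = 0.0303) and Gria4 by 0.55 (SE 0.15, limma adjusted p = 0.0239). Grin2b among those arrays was at a difference of -0.68 (SE 0.19, limma adjusted p = 0.027), in a fit where 13.7% of all genes passed. Among arrays of the first date, the differences were 0.04 (SE 0.15) for Gria2, 0.05 (SE 0.12) for Gria4 and -0.22 (SE 0.22) for Grin2b. WT vehicle replicate 4 and WT 0.35 replicate 2 both belong to the second date, and the 3 WT vehicle arrays of that date share 1 description number.

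At 0.5, WT arrays had Gria2 levels of 11.69, 11.74 and 11.75, a difference from vehicle of 0.21 (SE 0.13, limma adjusted p = 0.321). Gria4 there had 12.13, 11.86 and 12.25, a difference of 0.09 (SE 0.11, limma adjusted p = 0.7). Both genes had, in arrays labelled KO, negative differences from vehicle at both doses, between -0.17 and -0.12. The vehicle array with 12.12 for Gria2 and 12.49 for Gria4, replicate 1, was the highest of that group for both genes.

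Gria3 encodes GluA3 and is the X-linked member. Its dose differences ran from -0.12 in arrays labelled KO at 0.35 to 0.17 in Q192 at 0.5 (SE 0.11, limma adjusted p = 0.468). In Q192 at 0.5 its 5 arrays had 11.09, 11.27, 11.13, 11.10 and 10.84, against 10.87, 10.92, 10.92 and 10.93 in Q192 vehicle. Of the 5, 4 lay above the vehicle arrays and 1 below them. Its genotype differences were the narrowest of the set, between -0.04 and 0.02.

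Grm4 had the widest intervals. In Q192 at 0.5, its arrays had 9.54, 9.79, 10.11, 9.81 and 9.52, against 10.55, 10.14, 10.004 and 10.18 in Q192 vehicle. Only the array at 10.11 reached into the vehicle range, and the log2 difference was -0.49 (SE 0.275, 95% interval -1.04 to 0.07, limma adjusted p = 0.421). In R192, Grm4 lay between 9.82 and 10.39 at 0.35, against 9.30 to 10.10 in vehicle, a difference of 0.41 (SE 0.27) with a limma adjusted p of 0.921. In WT it had 9.85, 10.39 and 10.74 as lowest, median and highest array at 0.35, against 8.40, 9.998 and 11.09 in vehicle. That difference was 0.39 (SE 0.24, limma adjusted p = 0.348), 0.14 without WT vehicle replicate 4, and -0.10 (SE 0.11) with the granule neuron markers as a covariate. WT arrays at 0.5 had 9.80, 8.74 and 10.09, a difference of -0.36 (SE 0.29, limma adjusted p = 0.477).

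**Figure D2:**
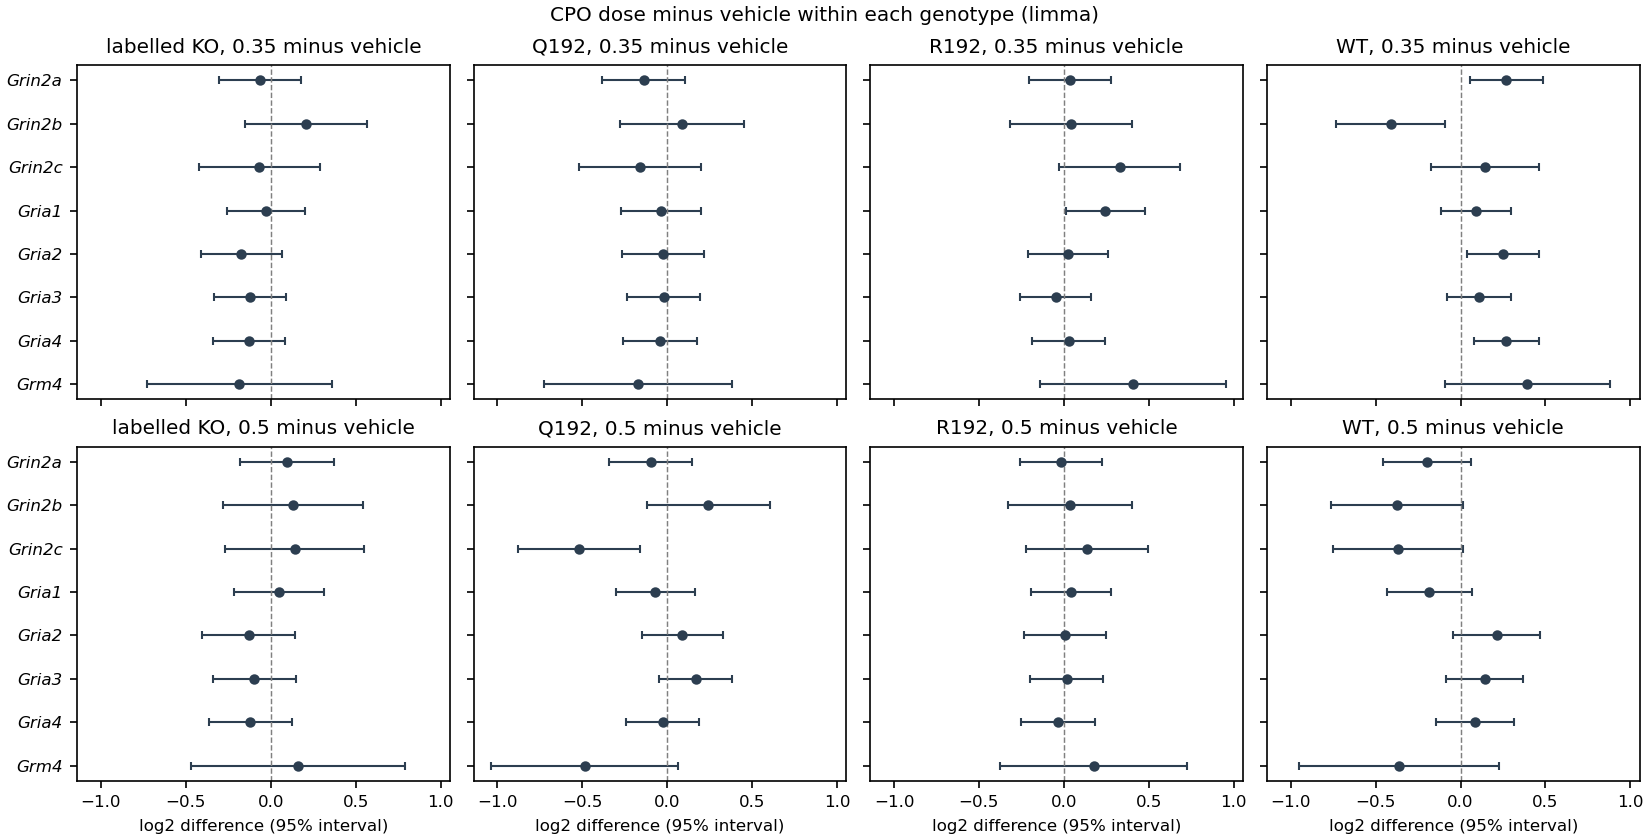
Log2 differences between CPO and vehicle for the 8 subunit genes within each genotype, at 0.35 in the upper and 0.5 mg/kg/day in the lower panels, with 95% intervals from limma. Intervals of 6 differences lie to 1 side of 0, namely Gria1 in R192 at 0.35, Grin2c in Q192 at 0.5, and Grin2a, Grin2b, Gria2 and Gria4 in WT at 0.35, and none passed after adjustment.

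On the mean of 4 genotypes the dose differences were smaller. At 0.35, they ran from -0.02 for Gria3 to 0.11 for Grm4, and at 0.5 from -0.15 for Grin2c to 0.06 for Gria3. In both comparisons 0% of all genes passed with limma, and 1.83% at 0.35 and 4.84% at 0.5 had an unadjusted p under 0.05, against 0 of 8 subunit genes at both doses. The 95% intervals bound these averages at -0.16 to 0.38 for Grm4 at 0.35 and at -0.34 to 0.04 for Grin2c at 0.5.

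Between genotypes, the subunit genes differed little on the mean of 3 treatments. For Q192 against WT, the log2 differences of the 8 genes ran from -0.06 to 0.13, with 0.455% of all genes passing. For R192 against Q192, which differ in 1 residue of the transgene product, they ran from -0.08 for Grin2a to 0.06 for Gria4, with 0.0736% of all genes passing. For Q192 against arrays labelled KO, all 8 were negative, from -0.19 for Grm4 to -0.04 for Gria3, with 0.401% of all genes passing. The comparisons that share the arrays labelled KO are not independent of each other. Medians over the 8 genes were -0.08 for Q192 and -0.08 for R192, each against arrays labelled KO, and 0.04 for arrays labelled KO against WT, while medians over all genes lay within 0.01 of 0.

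**Figure D3:**
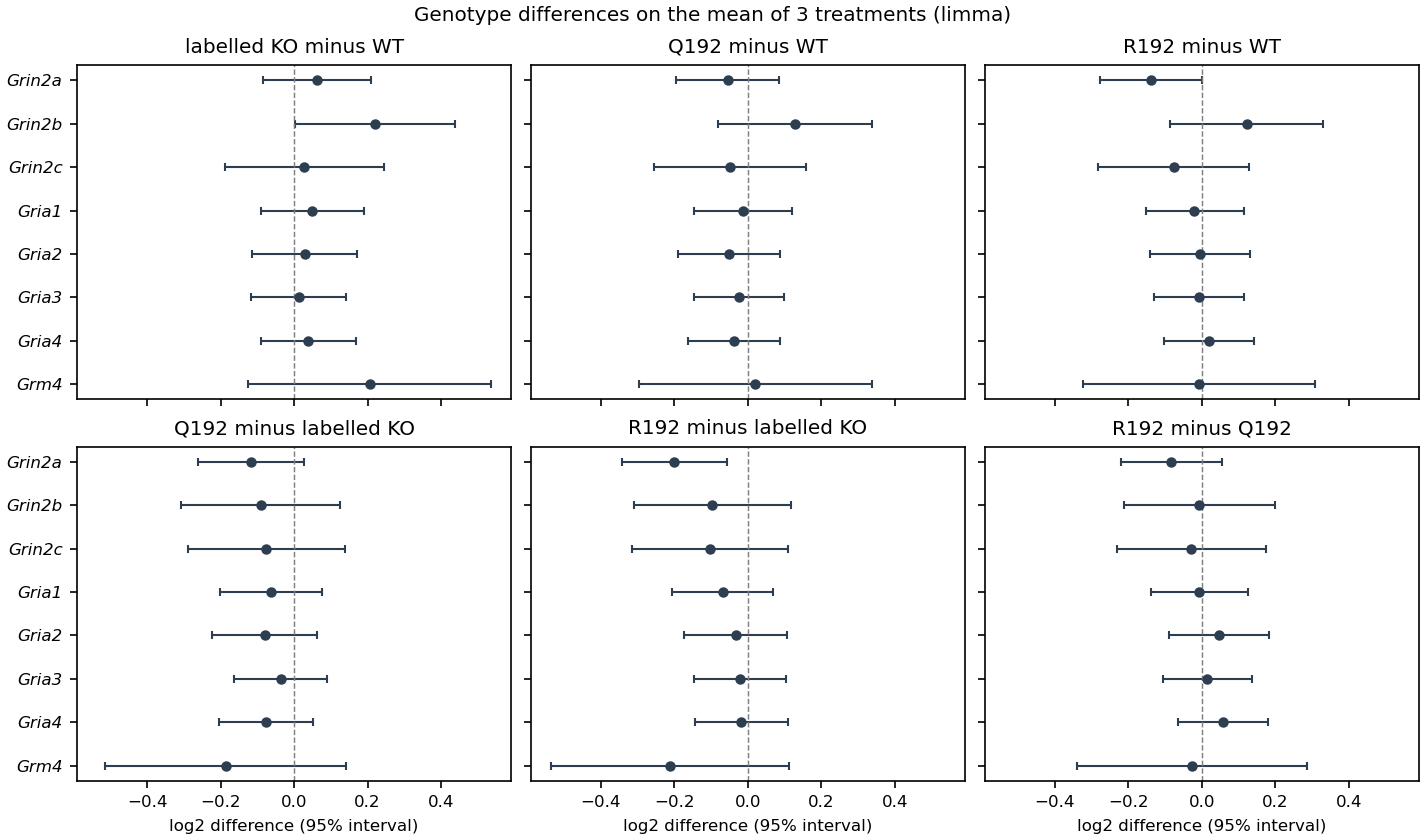
Log2 differences between genotypes for the 8 subunit genes on the mean of 3 treatments, with 95% intervals from limma. Grin2a in R192 minus labelled KO, at -0.20, and Grin2b in labelled KO minus WT, at 0.22, are the differences whose intervals exclude 0.

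Whether genotype altered the response to CPO was tested as a difference of differences. The effect of 0.35 in arrays labelled KO minus that in WT was 0.62 for Grin2b (SE 0.24, limma adjusted p = 0.111) and -0.33 for Grin2a (SE 0.16, limma adjusted p = 0.188). It was -0.42 for Gria2 (SE 0.16, limma adjusted p = 0.102) and -0.40 for Gria4 (SE 0.14, limma adjusted p = 0.0949). Of all genes, 0.00669% passed in that test and 25% had an unadjusted p under 0.05, against 4 of the 8 subunit genes. Without the array labelled KO 0.35 replicate 5, Gria2 at -0.495 (SE 0.16, limma adjusted p = 0.0314) and Gria4 at -0.435 (SE 0.15, limma adjusted p = 0.0374) passed, together with 16.6% of all genes. When instead the 3 arrays with much Xist were left out, the values were smaller, 0.34 for Grin2b (SE 0.23, limma adjusted p = 0.512), -0.23 for Grin2a, -0.32 for Gria2 and -0.29 for Gria4. At 0.5, 9.2% of all genes passed but 0 of 8 subunit genes, whose differences of effect ran from -0.34 for Gria2 to 0.52 for Grm4. For R192 minus Q192, 0% of all genes passed at both doses, and the differences of effect at 0.35 ran from -0.05 for Grin2b to 0.58 for Grm4.

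Levels of the subunit genes moved with cell type markers across arrays. The marker lists were granule neurons (16 genes, such as Gabra6), Purkinje cells (9), Bergmann glia and astrocytes (10) and brainstem and midbrain neurons (21, such as Slc17a6), each taken as the mean log2 level of its tested genes. Granule neuron markers had medians from 8.19 for Zic4 to 12.66 for Gabra6, and Purkinje cell markers from 8.10 for Foxp2 to 13.08 for Pcp4. Those of brainstem and midbrain neurons ran from 6.47 for Chat to 11.29 for Slc17a6. Several of the latter, such as Chat and Dbh (6.58), lay near the filter level of 6.44. Of 32 relations of 8 genes with 4 lists, 27 passed by Pearson's r and 22 by Spearman's rho, with two-sided permutation tests adjusted over the 32. The same relations were not computed for all genes tested, so these counts cannot be called particular to the subunit genes. The smallest p that the permutations can give is 1e-05. They shuffled arrays freely, without regard to groups, file dates or shared description numbers, so these p-values treat the arrays as independent. Markers and subunits were measured in the same RNA, so depth of dissection and RNA quality are shared by both, and their part was not tested.

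Grm4 followed the granule neuron markers most closely, with r = 0.932 and rho = 0.871 (n = 55, permutation p = 1e-05, adjusted p = 2.46e-05). Without the 2 arrays farthest from the median of the markers r was 0.885, and it was 0.892 and 0.951 within the first and second file date. Grin2c had r = 0.884 and rho = 0.827 with the same markers (permutation p = 1e-05, adjusted p = 2.46e-05), 0.858 without the 2 farthest arrays, and 0.888 and 0.883 within the dates. Gria1 (r = 0.836, rho = 0.673) and Grin2a (r = 0.834, rho = 0.733) came next, with permutation p = 1e-05 and adjusted p = 2.46e-05 for both. After group means and file date were removed, the coefficients of Grm4, Grin2c, Gria1 and Grin2a were 0.913, 0.878, 0.839 and 0.806.

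Grin2b went the other way. It had r = -0.496 and rho = -0.461 with the granule neuron markers (permutation p = 0.00032, adjusted p = 0.000569), -0.563 without the 2 farthest arrays, and -0.635 and -0.35 within the first and second date, the second of which did not pass. With the brainstem and midbrain markers Grin2b had r = 0.469 but rho = 0.158, and r was 0.193 without the 2 farthest arrays, so that relation rests on WT 0.35 replicates 1 and 2.

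With the Purkinje cell markers, r was 0.823 for Grm4, 0.79 for Gria4, 0.787 for Gria1, 0.775 for Grin2a, 0.732 for Grin2c, 0.563 for Gria2, 0.216 for Gria3 and -0.522 for Grin2b. All but Gria3 passed by r after adjustment, though Gria2 had 0.324 without the 2 farthest arrays and 0.323 within the first date.

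Gria4 had r = 0.79 with Purkinje cell markers and r = 0.735 but rho = 0.4 with granule neuron markers, the second of which was 0.553 without the 2 farthest arrays. With the brainstem and midbrain markers it had r = -0.753 and rho = -0.668 (permutation p = 1e-05, adjusted p = 2.46e-05), -0.678 without the 2 farthest arrays, and -0.841 and -0.757 within the dates. Gria2 had r = -0.654 and rho = -0.61 (permutation p = 1e-05, adjusted p = 2.46e-05), -0.611 without the 2 farthest arrays, and -0.577 and -0.731 within the dates. With the granule neuron markers, Gria2 had r = 0.432 but rho = 0.11, and r was 0.254 without the 2 farthest arrays, so that relation rests on those arrays. Gria3 showed r = 0.0274 with granule neuron markers (permutation p = 0.842, adjusted p = 0.842). With the Bergmann glia and astrocyte markers, Gria3 had r = -0.571 and rho = -0.511 (permutation p = 2e-05, adjusted p = 4.57e-05), -0.576 without the 2 farthest arrays, and -0.596 and -0.539 within the dates.

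**Figure D4:**
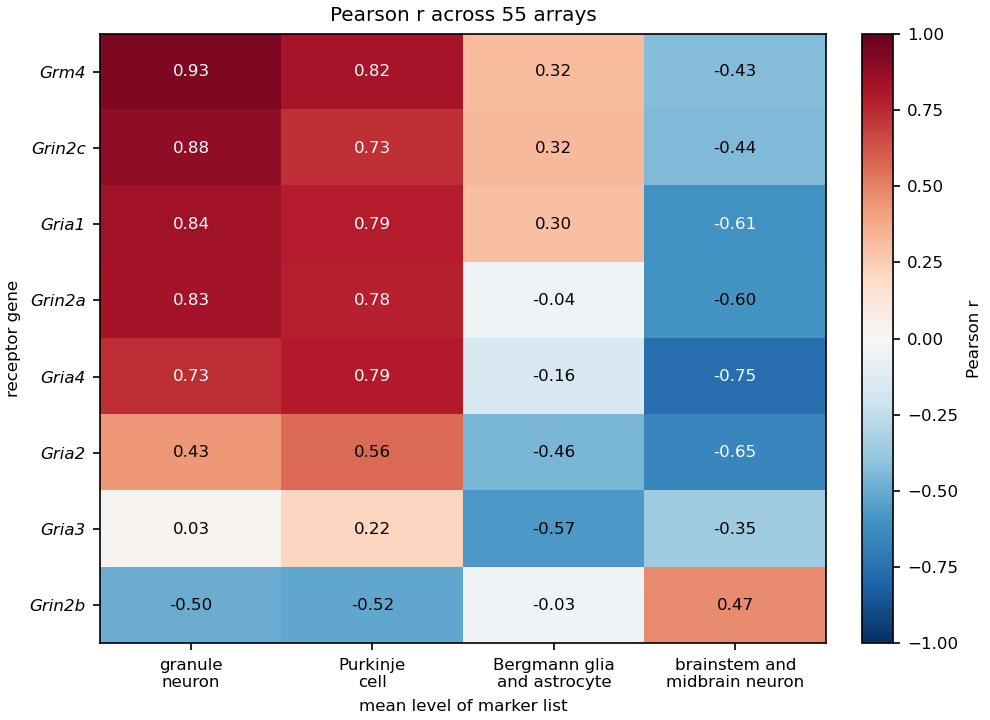
Pearson's r across 55 arrays between the level of each subunit gene (vertical axis) and the mean level of each marker list (horizontal axis), red for positive and blue for negative. Grm4 with granule neuron markers, at 0.93, and Gria4 with brainstem and midbrain markers, at -0.75, are the extremes, and Grin2b is the only gene negative with granule and positive with brainstem markers.

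**Figure D5:**
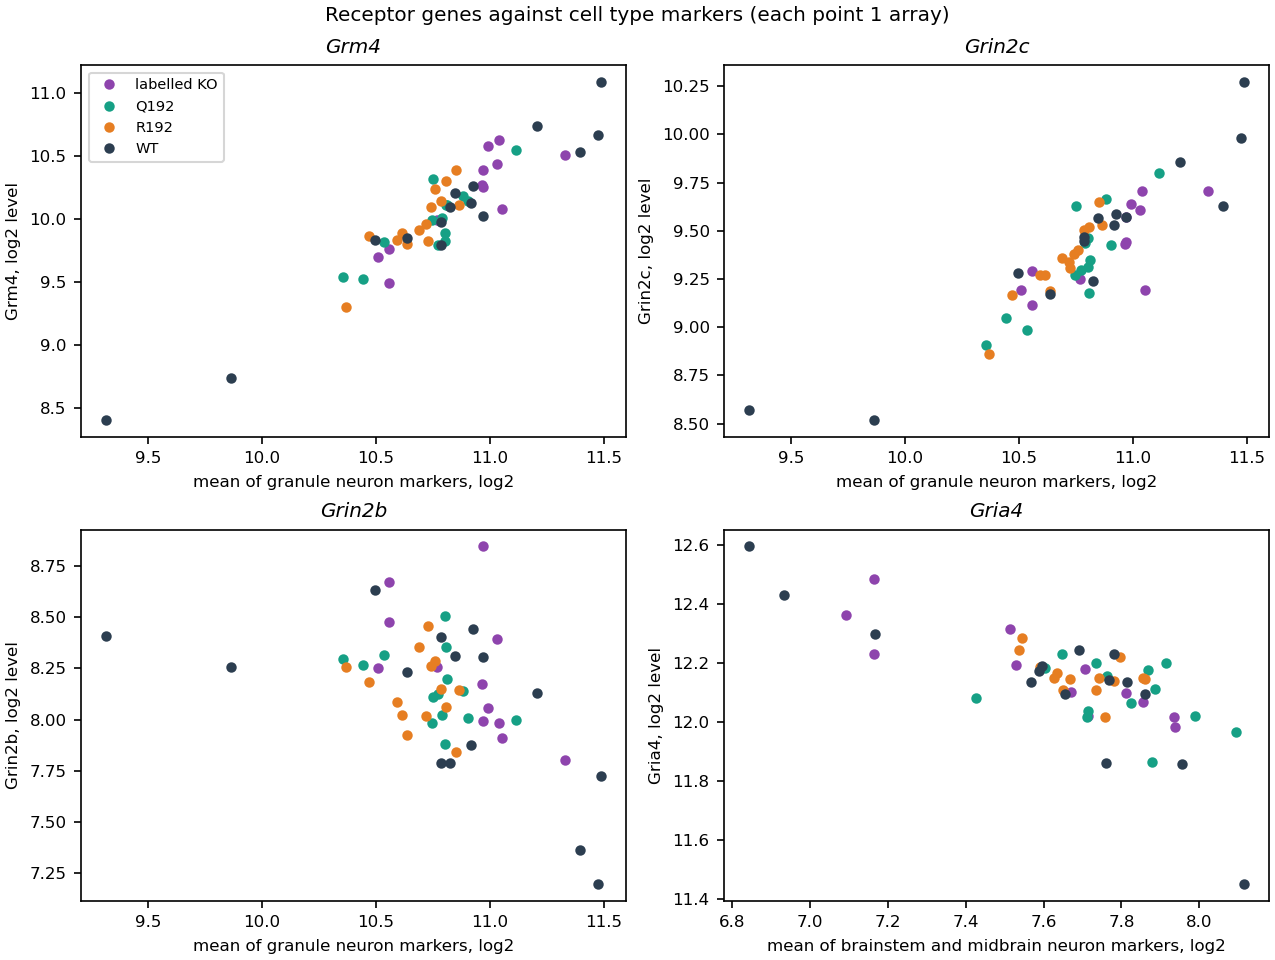
Log2 levels of Grm4, Grin2c and Grin2b against the mean of granule neuron markers, and of Gria4 against the mean of brainstem and midbrain neuron markers, 1 point per array, coloured by genotype. The WT arrays at granule means of 9.32 and 9.86 have the lowest Grm4 and Grin2c levels, and the WT arrays at brainstem means of 6.93 and 6.84 have Gria4 at 12.43 and 12.60.

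The subunit genes also varied with each other once group means and file date had been removed. Grin2c and Grm4 had r = 0.92 over 55 arrays, and Grin2c and Gria1 had r = 0.745. Gria2 had r = 0.822 with Gria3 and 0.785 with Gria4, but 0.108 with both Grin2c and Grm4. Grin2b was negative with Gria4 (-0.466) and Grin2a (-0.431). All these coefficients share the same arrays and describe them only.

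All genes tested were also ranked by Pearson's r with each subunit gene over the 55 arrays, again after group means and file date had been removed. Those most like each subunit gene were as follows. For Grm4 they were Adcy1 (0.963), a calcium-stimulated adenylyl cyclase, Wscd2 (0.957) and Cbln1 (0.955), the cerebellin that granule cells release and itself one of the granule neuron markers. Grin2c was closest to Shf (0.941), Tspan4 (0.938) and Ppfia4 (0.938), and Grin2a to Srgap2 (0.874), Dlgap1 (0.864), a postsynaptic scaffold protein, and Reln (0.852), which encodes reelin and is also among the granule neuron markers. Grin2b was closest to Lrrc7 (0.926), a postsynaptic density protein, and to the potassium channel genes Kcna4 (0.862) and Kcnc2 (0.862).

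Of the AMPA subunit genes, Gria1 was closest to Arhgef33 (0.873), Slc1a3 (0.863), the glutamate transporter of Bergmann glia, and Kit (0.86). Slc1a3 is also among the Bergmann glia and astrocyte markers. With the mean of that list, Gria1 had r = 0.3 over 55 arrays, against 0.836 with the granule neuron markers, both with group means kept. Gria2 was closest to Luc7l3 (0.91), Atrx (0.901) and Hnrnph1 (0.896), Gria3 to Usp40 (0.868), Dync2h1 (0.868) and Zcchc7 (0.866), and Gria4 to Olfm3 (0.945), Stxbp5l (0.943) and Sirt1 (0.934).

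Other glutamate receptor genes were examined as a list of 15 tested genes. Of these, 0 passed in any dose or genotype comparison with limma, and 0 to 7 had an unadjusted p under 0.05. Over all genes tested, the share with such a p in those comparisons ran from 1.02% to 22.4%. In WT at 0.35, 12 of the 15 were lower and the list's median difference was -0.19, against -0.01 over all genes tested. Marker means there were 7.4 in WT at 0.35 and 7.74 in WT vehicle for brainstem and midbrain neurons, 11.24 and 11.74 for oligodendrocytes, and 7.91 and 8.23 for microglia, and their part was not tested. The differences of smallest p there were -0.485 for Grin2d (SE 0.12, limma adjusted p = 0.12), the NMDA subunit of brainstem and midbrain neurons, and 0.43 for Grik2 (SE 0.125, limma adjusted p = 0.12), a kainate receptor subunit of granule cells. In the difference of the 0.5 effects between arrays labelled KO and WT, 2 of 15 passed, against 9.2% of all genes, and these were Grik3 at 0.52 (SE 0.15, limma adjusted p = 0.0385) and Grm2 at 0.67 (SE 0.20, limma adjusted p = 0.0397).

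Of 26 auxiliary and scaffold proteins of these receptors, Cacng8, an AMPA receptor auxiliary subunit, fell by 0.41 in WT at 0.5 against WT vehicle (SE 0.11, limma adjusted p = 0.0433), where 1.04% of all genes passed. It was the only gene of the list to pass in a dose comparison. Shisa6, another AMPA receptor auxiliary protein, fell by 0.42 in R192 against arrays labelled KO (SE 0.12, limma adjusted p = 0.027), where 5.61% of all genes passed, the only one to pass between genotypes. In the difference of the 0.5 effects between arrays labelled KO and WT, 5 of 26 passed, again against 9.2% of all genes, all with a higher effect in arrays labelled KO, namely Cacng2 (0.62), Cacng8 (0.59), Dlg3 (0.51), Dlg4 (0.81), which encodes PSD-95, and Pick1 (0.315), with limma adjusted p-values between 0.037 and 0.0428. Without WT 0.5 replicate 2, the array with few granule neuron markers, the calls in WT at 0.5 and in that difference of effects were lost, as were those of all other genes with limma. The calls in that difference of effects were also lost within each file date and without any 1 of labelled KO 0.5 replicates 1 and 3, labelled KO vehicle replicates 1 and 4, WT 0.5 replicate 3, and WT vehicle replicates 1 and 5.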

How the data were processed

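RNA from bisected mouse cerebella was hybridised to 55 Affymetrix Mouse Gene 1.0 ST arrays. The deposited values are log2 expression levels per probe set, normalised by RMA in Expression Console 1.1 per the submitters' processing notes. That the scale is log2 was read from the range of the deposited values, 1.15 to 14.8. Array medians lay between 7.37 and 7.54, and the number of arrays limits the precision.

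Of 35557 probe sets, 21789 had 1 symbol, 1621 several and 12147 none in the platform annotation. Each gene took its probe set with the highest mean (999 genes had several). Genes with a mean level over the 25th percentile (6.44) were kept, and 4 sex-linked genes left out, which left 14949.

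Groups were fitted with limma 3.58.1 in R 4.3.3, with the file date in the array description as a covariate, the number in the description as a random block (correlation 0.131) and a trended prior on 42 residual degrees of freedom. Benjamini-Hochberg adjustment ran over all genes tested, with a threshold of 0.05, in 20 comparisons. The design had foreseen 36 relations with markers, of which 32 could be computed because Grin1 was not analysed. Their two-sided permutation tests used 1e+05 resamples. Alternatives left out arrays or a file date, changed the filter, the choice of probe set, the centring, the weights and the blocks, or added marker means or the first principal axis as covariates. The test code was tested on simulated data.

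The labels do not say that arrays of a group came from separate animals, so p-values measure the spread between these arrays only. Replicate numbers did not pair samples: residuals of arrays with the same number had a mean correlation of 0.027 over 265 pairs, against -0.00612 over 1116 pairs with different numbers. No 2 arrays of a group were alike, and the smallest root mean square difference over 104 pairs was 0.24. The members and gene lists were chosen with earlier results of these data known. Named genes were the 8 members, the 3 genes most like each by Pearson's r, and in other lists those that passed or had the smallest p.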

Additional observations from a re-analysis of the deposited data

Results flagged for a closer look

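Of 80 combinations of a gene and a group of at least 4 arrays, 6 held an array far from the others by Dixon's ratio, where chance alone gives about 5%. The genes were measured on the same arrays, so the combinations are not independent. Gria2 (12.15, the nearest other array at 11.77) and Gria3 (11.26, the nearest at 11.01) were highest in WT 0.35 replicate 2. Grin2b was lowest in WT vehicle replicate 1 (7.73, the nearest at 8.31) and highest in Q192 vehicle replicate 4 (8.14, the nearest at 8.02). In R192 at 0.5, Gria4 was lowest in replicate 5 (12.02, the nearest at 12.14), and Grm4 highest in replicate 2 (10.30, the nearest at 9.96).

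In 5 of 96 combinations of a gene, a dose and a pair of genotypes, the arrays of the pair lay apart. Every array of 1 genotype lay on one side of its vehicle mean and every array of the other genotype on the opposite side. How often other genes or chance give this pattern was not computed. At 0.5, Grin2c differed from vehicle by 0.15 in arrays labelled KO and by -0.50 in Q192, a gap of 0.65, and Grm4 by 0.17 and -0.46, a gap of 0.63. Grm4 at 0.5 also differed between Q192 (-0.46) and R192 (0.20), a gap of -0.66, and this gap, tested as R192 minus Q192, was 0.66 (SE 0.39, limma adjusted p = 0.675). Grin2b at 0.5 differed by 0.23 in Q192 and -0.35 in WT, a gap of 0.58. At 0.35, Grin2a differed by -0.15 in Q192 and 0.28 in WT, a gap of -0.43. Apart from the gap of Grm4 between Q192 and R192, these differences were not tested.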

How the results depend on the processing

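Counts of subunit genes that passed kept their value of 0 under most alternatives. With array quality weights, 1 gene passed in Q192 at 0.5 (Grin2c), 1 in WT at 0.5 (Grin2b), 1 in R192 against WT (Grin2a), 2 in R192 against arrays labelled KO (Grin2a and Grm4) and 2 in the test over 12 groups. Without the correlation of description numbers, and without both the arrays of high Xist and the array labelled KO 0.35 replicate 5, 1 passed in R192 against arrays labelled KO (Grin2a). With the second date only, 3 passed in WT at 0.35, and without the array labelled KO 0.35 replicate 5, 2 passed in the difference of the 0.35 effects between arrays labelled KO and WT. Leaving out single arrays gave 0 to 3 in WT at 0.35 (3 without WT vehicle replicate 1, 2 without WT 0.35 replicate 4), 0 to 1 in R192 against arrays labelled KO (1 without WT vehicle replicate 4), 0 to 2 in that difference of effects (2 without labelled KO 0.35 replicate 5, labelled KO vehicle replicate 2 or WT 0.35 replicate 4, and 1 once WT vehicle replicate 1 was left out) and 0 to 2 in the test over 12 groups (2 without WT vehicle replicate 4). The causes were not tested. With the replicate number as a block, 0 subunit genes passed in each comparison, though genes of all passing in WT at 0.5 numbered 72 against 155. That count was 0 to 834 without single arrays. Genes of all passing in R192 against arrays labelled KO ranged from 10 to 5401 around 839, in the difference of the 0.5 effects between arrays labelled KO and WT from 0 to 2979 around 1375, and over 12 groups from 11 to 4892 around 628. The 13 single differences with an unadjusted p under 0.05 with limma were followed under 71 alternatives. Of their values, 901 kept direction and side of the threshold, 22 passed in addition and 0 reversed. Since none of the 13 had passed, a value of the same direction that failed again counted as kept, however small it became. Grm4 in WT at 0.35, which was not among the 13, did reverse with the granule neuron markers as a covariate.

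Among the marker relations, with the first date only, r was 0.0733 for Grin2a with Bergmann glia markers, 0.103 for Gria2 with granule and 0.323 with Purkinje markers, and -0.262 and -0.222 for Gria3 with granule and brainstem markers. With the second date only, Grin2b had -0.35, -0.393 and 0.142 with granule, Purkinje and Bergmann markers, Grin2c had 0.268 and -0.368 with Bergmann and brainstem markers, and Gria1 and Grm4 had 0.241 and 0.319 with Bergmann markers. Without the 2 farthest arrays, Grin2b had 0.0471 and 0.193 with Bergmann and brainstem markers, Gria1 and Grm4 had 0.197 and 0.268 with Bergmann markers, and Gria2 and Gria3 had 0.254 and -0.0645 with granule markers. Averaged per group and description number, Gria2 and Gria3 had 0.245 and -0.0932 with granule markers and Gria3 had -0.278 with brainstem markers. With group means and date removed, Grin2a had 0.0496 with Bergmann markers.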

Other observations

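Genes of glutamate supply and uptake were examined as a list of 8 tested genes, of which 0 passed in a dose comparison with limma. Of the 8, 0 to 5 had an unadjusted p under 0.05 in those comparisons. The 5 were in WT at 0.35, where 20.3% of all genes tested had such a p and 0.00669% passed. In WT at 0.35, Slc1a1, a neuronal glutamate transporter, had a difference from vehicle of -0.37 (SE 0.10, limma adjusted p = 0.12), and Slc1a6, the transporter of Purkinje cells, 0.25 (SE 0.21, limma adjusted p = 0.504). Slc17a6, the vesicular glutamate transporter of brainstem neurons and itself one of the brainstem and midbrain markers, was chosen after its values were seen and had -0.99 (SE 0.30, limma adjusted p = 0.12). The brainstem and midbrain markers averaged 7.4 ± 0.40 (SD) in 6 WT arrays at 0.35, against 7.74 ± 0.33 in the 6 WT vehicle arrays, and their part in these values was not tested. Slc1a6 fell by 0.50 in R192 against arrays labelled KO (SE 0.14, limma adjusted p = 0.026), where 5.61% of all genes passed. It was the only gene of this list to pass in any of 20 comparisons, and it is also among the Purkinje cell markers, of which 6 of 9 had a negative difference there, with a median of -0.205.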
